A study of Mus musculus with 6 samples.

Results

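The matrix metalloproteinases (MMP genes), their tissue inhibitors (TIMP genes) and the related ADAMTS proteases were examined in PyMT mammary tumours that lack serglycin. Members were taken by gene symbol from the platform annotation, as probe sets with a single symbol of the form Mmp, Timp or Adamts followed by a number. There were 44 of 22180 measured genes, made up of 22 MMP, 4 TIMP and 18 ADAMTS genes. Of these, 4 had 2 probe sets, and the brighter one was used. Adamts2 and Mmp15 have no probe set with that symbol alone and were not analysed here.

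Each tumour was hybridised to 1 whole-transcript array. The SG-/- tumours came from 3 PyMT+ mice that lack both copies of serglycin, and the SG+/- tumours from 3 PyMT+ mice that keep 1 copy. All 6 tumours thus carry at least 1 lost copy of the gene, and no wild-type tumour is among the samples. The labels give neither the promoter of the transgene nor the age or strain of the mice, and the RNA came from whole frozen tumour pieces. Values are log2 expression values, and every difference is SG-/- minus SG+/-. Because the tissue is a mixture, a smaller number of cells of a type and less RNA per cell cannot be told apart.

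MMPs are zinc proteases that are made as inactive precursors and that cut collagens, gelatin, laminins and other matrix proteins once the propeptide is removed. TIMPs bind the active site of MMPs and, in the case of TIMP3, also that of several ADAM and ADAMTS proteases. ADAMTS proteases are secreted, carry thrombospondin repeats, and cut proteoglycans such as versican and aggrecan, procollagen or von Willebrand factor. In mammary tumours many members are made by fibroblasts, endothelial cells and leukocytes rather than by the carcinoma cells. Serglycin, a granule proteoglycan, is known to bind proteases, and in a human monocytic leukaemia line it has been found linked to the precursor of MMP9.

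Srgn, the deleted gene, stood at 5.07, 5.04 and 4.89 in SG-/- tumours and at 6.76, 6.43 and 6.35 in SG+/- tumours, so that the genotypes did not overlap. Its difference was -1.52, with a standard error of 0.15 (limma adjusted p = 0.467). The epithelial label was borne by the arrays, since all 10 luminal markers lay above the dim level, with Krt8 at 12.32, 12.21 and 12.18 in SG-/- and 12.14, 12.11 and 12.06 in SG+/- tumours. The dim level used here is 6.09, the 40th percentile of the probe sets by their mean over the arrays. The arrays differed in the mean of 1394 olfactory and vomeronasal receptor genes taken as silent, which was 4.57, 5.13 and 5.86 in SG-/- and 4.58, 5.62 and 5.49 in SG+/- tumours. The 95th percentile of these receptor genes, each by its mean over the arrays, was 7.07. Of the 44 members 25 had a mean under it, so a place above the dim level does not by itself show expression.

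No member passed the test over all genes. With limma, 0 of 44 members had an adjusted p under 0.05, and the background was 0% of the 22180 genes. The smallest adjusted p among members was 1.00. At an unadjusted p under 0.05 there were 6 members, Adamts1, Adamts6, Timp3, Mmp3 and Mmp19, which were higher in SG-/- tumours, and Mmp13, which was lower. That is 5 higher and 1 lower of 44, where over all genes 2.11% passed, 1.43% higher and 0.685% lower. The genotypes did not overlap in 4 members on the higher side, against 2.84% of all genes, and in 1 on the lower side, against 3.19%. No member reached an absolute difference of 1.2, the threshold named in the series description, which 0.167% of all genes reached.

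As a whole, 33 of the 44 members were higher in SG-/- tumours, while 46.3% of all genes were. The median difference was 0.09 over the members and -0.01 over all genes. By family, 14 of 22 MMP genes, 3 of 4 TIMP genes and 16 of 18 ADAMTS genes were higher, with medians of 0.06, 0.16 and 0.14. The SD of the family median between arrays of 1 genotype was 0.09 for the MMP, 0.33 for the TIMP and 0.13 for the ADAMTS genes. Without SG-/- replicate 3 the MMP median was -0.05 and the ADAMTS median 0.31, and with limma array weights they were -0.06 and 0.24. Without SG-/- replicate 2 they were 0.11 and 0.08. The array weights were 0.96, 4.95 and 0.20 in SG-/- replicates 1, 2 and 3. They were 0.73, 0.74 and 1.99 in SG+/- replicates 1, 2 and 3. Every result with array weights thus rests most on SG-/- replicate 2 and SG+/- replicate 3. The MMP median was -0.01 without SG+/- replicate 2, and leaving out SG-/- replicate 1 gave a TIMP median of -0.01, leaving out SG-/- replicate 2 one of 0.33.

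**Figure D1:**
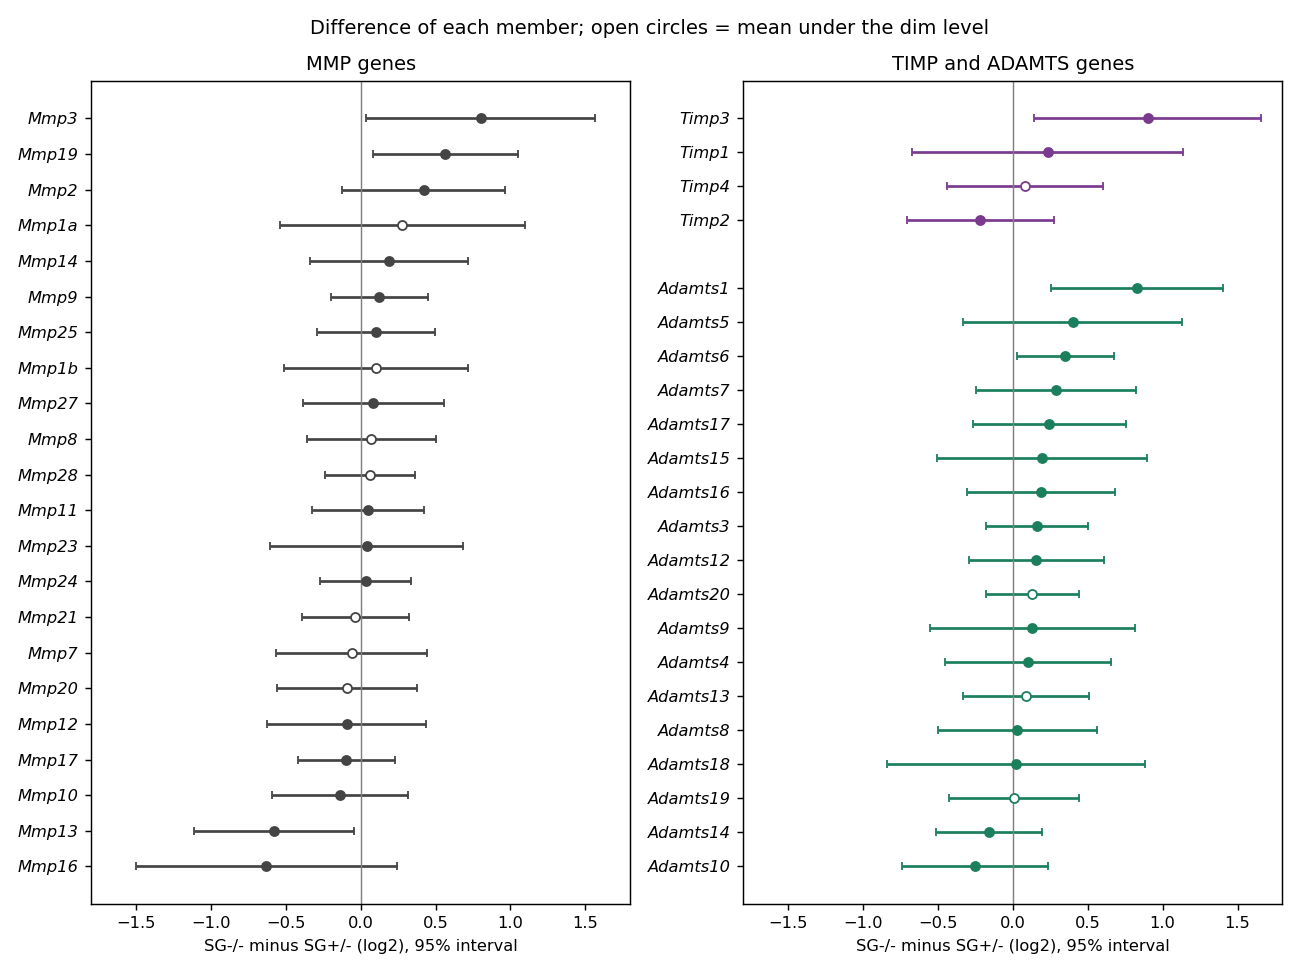
Difference of each gene, SG-/- minus SG+/- on the log2 scale (x axis), with its 95% interval from limma; MMP genes on the left, TIMP and ADAMTS genes on the right. Filled circles mark genes at or above the dim level of 6.09 and open circles those under it. The intervals of 6 genes leave out 0, and none of these passed after adjustment.

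Adamts1, a protease that cuts versican and aggrecan and has a part in ovulation in mice, was the member whose difference held under the most settings. It stood at 10.1, 10.1 and 9.38 in SG-/- tumours and at 9.02, 9.31 and 8.73 in SG+/- tumours. All 3 SG-/- values lay above all SG+/- values, by a narrow gap in SG-/- replicate 3. The mean was 9.85 ± 0.40 in SG-/- and 9.02 ± 0.29 in SG+/- tumours (SD, n = 3 each), a difference of 0.83 with a standard error of 0.24 and a 95% interval from 0.25 to 1.40, or 1.77-fold. The unadjusted limma p was 0.011 and the adjusted p 1.00. It had an unadjusted p under 0.05 in 14 of 14 alternative settings, with a difference between 0.68 and 1.13. A two-sided exact permutation test of this gene gave p = 0.1, and 3 tumours a side can give no lower.

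Timp3, an inhibitor held in the matrix by sulfated glycosaminoglycans, had the largest difference among the members, at 0.90 with a standard error of 0.32 (95% interval 0.14 to 1.66, limma unadjusted p = 0.027, adjusted p = 1.00). Its level was 10.6, 10.6 and 9.56 in SG-/- tumours and 9.24, 9.74 and 9.11 in SG+/- tumours. SG-/- replicate 3 lay below SG+/- replicate 2, so the genotypes overlapped, and the exact permutation p was 0.2. The difference ran from 0.71 without SG-/- replicate 2 to 1.32 with array weights, and 10 of 14 alternatives kept an unadjusted p under 0.05. The array weights count SG-/- replicate 2 most, which is also the highest tumour for Timp3.

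Mmp3, which encodes stromelysin-1, a broad matrix protease of fibroblasts that also activates other MMP precursors, stood at 8.24, 7.36 and 7.03 in SG-/- tumours and at 6.98, 6.87 and 6.38 in SG+/- tumours. The genotypes did not overlap, but SG-/- replicate 3 and SG+/- replicate 1 nearly met. The difference was 0.80 ± 0.32 (SE) (95% interval 0.035 to 1.566, limma unadjusted p = 0.043, adjusted p = 1.00), and 0.45 without SG-/- replicate 1, the tumour with the highest value.

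Mmp19, a secreted MMP, had 7.45, 7.24 and 6.99 in SG-/- tumours and 6.94, 6.73 and 6.32 in SG+/- tumours. These values again did not overlap, with a narrow gap. The mean of Mmp19 over the arrays, 6.94, lay under the 95th percentile of the silent receptor genes, 7.07. Its SG-/- minus SG+/- values are given with that limit. The difference was 0.57 ± 0.20 (SE) (95% interval 0.08 to 1.05, limma unadjusted p = 0.028, adjusted p = 1.00). It was 0.39 without SG+/- replicate 3, the lowest tumour. For both Mmp3 and Mmp19, 9 of 14 alternatives kept an unadjusted p under 0.05.

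Adamts6, a close relative of Adamts10, stood at 7.75, 7.38 and 7.56 in SG-/- tumours and at 7.18, 7.22 and 7.24 in SG+/- tumours. The SG+/- tumours were nearly alike, with an SD of 0.03, and all SG-/- values lay above them. The difference was 0.35 ± 0.14 (SE) (95% interval 0.025 to 0.675, limma unadjusted p = 0.038, adjusted p = 1.00), and 0.22 with array weights, and 7 of 14 alternatives kept an unadjusted p under 0.05.

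Mmp13, which encodes collagenase 3, an enzyme that cuts fibrillar collagen, ran the other way. Its level was 7.16, 7.21 and 7.30 in SG-/- tumours and 7.71, 8.29 and 7.41 in SG+/- tumours. The SG-/- values were close together and all below the SG+/- values. The difference was -0.58 ± 0.23 (SE) (95% interval -1.11 to -0.04, limma unadjusted p = 0.038, adjusted p = 1.00). SG+/- replicate 2 was the highest tumour, and without it the difference was -0.33. Of the alternatives, 8 of 14 kept an unadjusted p under 0.05.

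**Figure D2:**
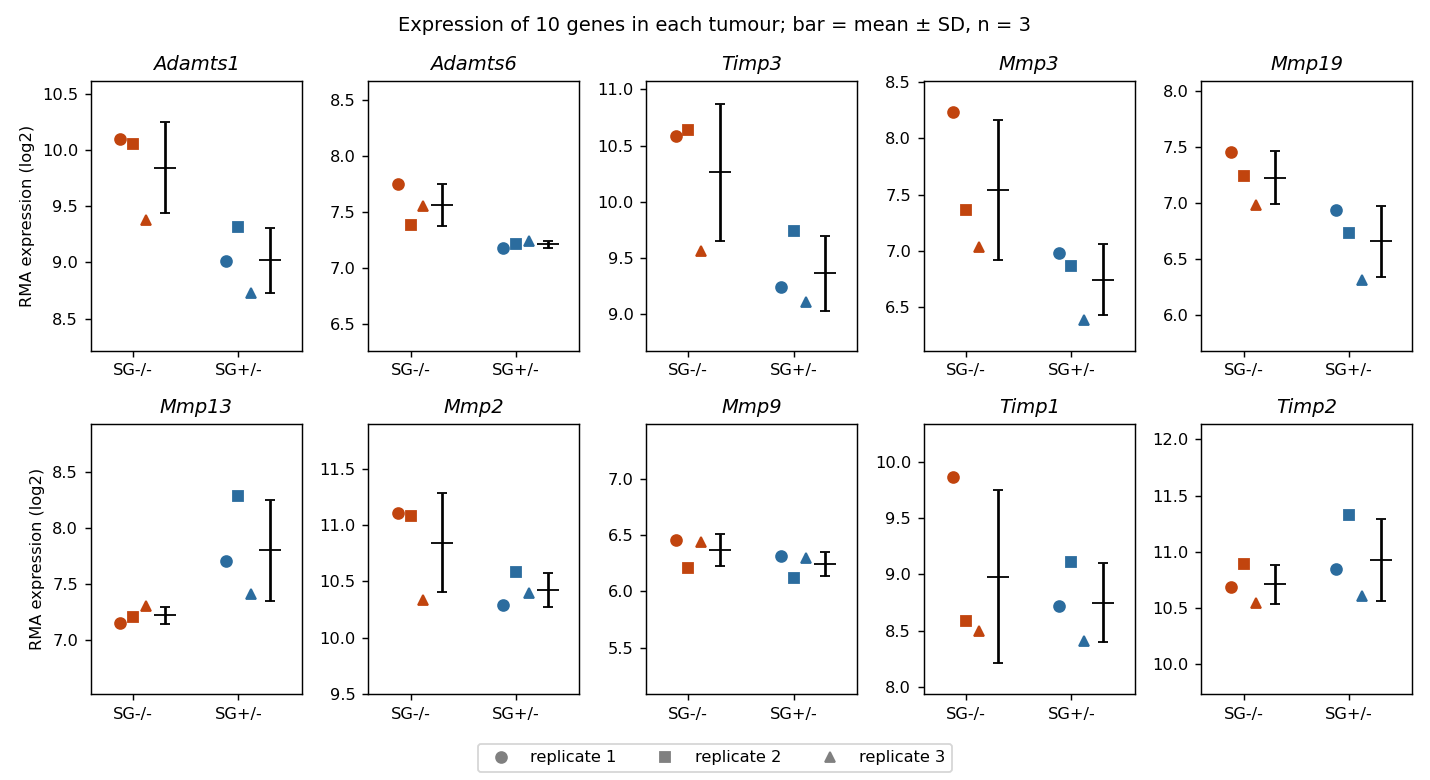
Log2 expression of 10 genes in each tumour, SG-/- left and SG+/- right in each panel, with marker shape for the replicate and the mean ± SD (n = 3) beside the points. Each y axis spans the same log2 range. Adamts1, Adamts6, Mmp3 and Mmp19 have every SG-/- tumour above every SG+/- tumour, and Mmp13 has every one below.

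The 4 genes with the shifts above that have a RefSeq promoter entry do not all share 1 promoter layout. Adamts6 and Mmp19 have no such entry. Mmp3 and Mmp13 belong to a run of 10 neighbouring MMP genes on chromosome 9, in the order Mmp13, Mmp12, Mmp1b, Mmp3, Mmp1a, Mmp10, Mmp8, Mmp27, Mmp20 and Mmp7, and stand in it at places 1 and 4 with opposite differences. The other 8 genes of the run differed by -0.14 to 0.28. The 150 bases before the annotated start are shown for the 4 genes with an unadjusted p under 0.05 that have a RefSeq promoter entry, read 5′ to 3′ on the gene's strand from the build GRCm38.p6. Capitals mark the letters TGANTCA, the AP-1 element, and TATAAA, the TATA box. The regions are chr16:85803114-85803263, minus strand for Adamts1, chr10:86300262-86300411, plus strand for Timp3, chr9:7445672-7445821, plus strand for Mmp3 and chr9:7272364-7272513, plus strand for Mmp13.
Adamts1: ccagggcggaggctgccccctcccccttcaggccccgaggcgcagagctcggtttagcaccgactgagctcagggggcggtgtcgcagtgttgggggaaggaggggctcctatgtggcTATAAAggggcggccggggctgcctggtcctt
Timp3: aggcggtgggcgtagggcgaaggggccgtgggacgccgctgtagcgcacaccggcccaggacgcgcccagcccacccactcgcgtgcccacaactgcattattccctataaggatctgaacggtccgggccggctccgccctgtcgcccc
Mmp3: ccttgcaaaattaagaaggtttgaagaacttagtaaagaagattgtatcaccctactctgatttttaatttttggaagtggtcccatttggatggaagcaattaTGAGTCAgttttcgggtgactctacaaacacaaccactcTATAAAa
Mmp13: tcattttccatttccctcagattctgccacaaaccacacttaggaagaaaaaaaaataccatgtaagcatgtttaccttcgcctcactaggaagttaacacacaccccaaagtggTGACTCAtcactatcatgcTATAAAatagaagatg

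In Mmp3 the AP-1 letters begin 46 bases before the annotated start and in Mmp13 35 bases before it, and each gene has TATAAA further downstream. Adamts1 has TATAAA 32 bases before its start and no AP-1 letters in the 250 bases searched, and Timp3 has neither. The stretches shown are 69.3% and 70.7% G or C in Adamts1 and Timp3, and 35.3% and 38.7% in Mmp3 and Mmp13. RefSeq promoters were found for 30 of the 44 members. TGANTCA, searched on both strands in the 250 bases before the start, was present in 8 of these 30 genes, against 6.75% of 32851 promoters, and TATAAA on the gene's strand in 9 of 30, against 7.59%. All 8 genes with the AP-1 letters lie in the chromosome 9 run. Of them 3 were higher and 5 lower in SG-/- tumours, from -0.58 in Mmp13 to 0.80 in Mmp3, with a median of -0.08. The 22 members with a promoter entry and no such letters had 19 higher and 3 lower, with a median of 0.09. Over all genes 46.3% were higher. Under the dim level lay Mmp1a, Mmp1b, Mmp7 and Mmp20 of the first set. In the second set these were Mmp8, Mmp21, Mmp28, Timp4, Adamts13 and Adamts20. Whether the letters bear on the direction was not tested. A match of letters is a description of the sequence and does not show that a factor binds.

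The gelatinases Mmp2 and Mmp9 degrade denatured collagen and basement membrane collagen. Mmp2, made mainly by fibroblasts, was at 11.1, 11.1 and 10.3 in SG-/- tumours and 10.3, 10.6 and 10.4 in SG+/- tumours. SG-/- replicates 1 and 2 were the highest tumours and SG-/- replicate 3 lay within the SG+/- range. The difference was 0.42 ± 0.23 (SE) (95% interval -0.12 to 0.97, limma unadjusted p = 0.111, adjusted p = 1.00), and 0.67 without SG-/- replicate 3.

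Mmp9, a gelatinase of neutrophils and macrophages, stood just above the dim level, at 6.46, 6.20 and 6.44 in SG-/- tumours and at 6.31, 6.12 and 6.30 in SG+/- tumours. All of these lay under the 95th percentile of the silent receptor genes, 7.07. The genotypes overlapped. The difference was 0.13 with a 95% interval from -0.20 to 0.45 (limma adjusted p = 1.00), and with array weights it was -0.01. Of 11 neutrophil markers measured, 4 lay above the dim level, 6 were higher in SG-/- tumours, and Ly6g, which defines mouse neutrophils, was at 4.44, 4.31 and 5.81 in SG-/- and 4.51, 4.92 and 4.80 in SG+/- tumours, all under it.

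The other genes of the collagenase and stromelysin groups lay on both sides of the dim level. Mmp8, the neutrophil collagenase, Mmp1a, an interstitial collagenase of the mouse, and Mmp1b lay under it. Mmp10 and Mmp11, with means of 6.20 and 6.88 over the arrays, lay above it. Mmp1a was at 3.54, 3.82 and 4.94 in SG-/- tumours and at 3.94, 3.65 and 3.88 in SG+/- tumours, with 1 tumour, SG-/- replicate 3, apart. Its difference of 0.28 (95% interval -0.54 to 1.10) was -0.14 without that tumour. Mmp1a and Mmp1b are near relatives, and whether their probes separate them was not tested. Mmp10, which encodes stromelysin-2, differed by -0.14, Mmp11, stromelysin-3, by 0.05, Mmp8 by 0.07 and Mmp1b by 0.10. Mmp12, the macrophage elastase, differed by -0.09 (95% interval -0.63 to 0.44), from 6.98 to 7.79 over the SG-/- tumours and from 7.28 to 7.62 over the SG+/- tumours. All 10 macrophage markers were higher in SG-/- tumours (median 0.36, and 0.16 without SG-/- replicate 1).

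Membrane-bound MMPs, which act at the cell surface, showed no shared direction. Mmp14, the activator of the MMP2 precursor, was at 10.66, 10.46 and 10.32 in SG-/- tumours and 10.10, 10.77 and 10.02 in SG+/- tumours, a difference of 0.19 (95% interval -0.34 to 0.72). Its highest and lowest tumours were both SG+/-. Mmp16, a relative of Mmp14 with a transmembrane anchor, stood at 6.90, 6.10 and 6.16 in SG-/- tumours and at 6.94, 7.72 and 6.39 in SG+/- tumours. SG+/- replicate 2 was high and the genotypes overlapped, and the difference was -0.63 ± 0.37 (SE) (95% interval -1.498 to 0.240, limma unadjusted p = 0.131, adjusted p = 1.00). It was -0.28 without that tumour and -0.94 when SG+/- replicate 3 was dropped. Mmp24, also transmembrane, differed by 0.04. Mmp17 and Mmp25, which are held by a lipid anchor, differed by -0.10 and 0.10, and Mmp23 by 0.04, with SG-/- replicate 1 high at 7.39.

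The remaining MMP genes had differences close to 0. Mmp7, matrilysin, Mmp20, the protease of tooth enamel, Mmp21 and Mmp28, epilysin, all lay under the dim level, with differences from -0.09 in Mmp20 to 0.06 in Mmp28. Mmp27 lay slightly above that level and differed by 0.08. Over the 22 MMP genes 15 had a mean at or above the dim level and 7 under it.

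The TIMP genes differed among themselves. Timp1, an inhibitor induced in inflamed and fibrotic tissue, stood at 9.86, 8.59 and 8.49 in SG-/- tumours and at 8.72, 9.11 and 8.41 in SG+/- tumours. A single tumour, SG-/- replicate 1, was far above the rest, and the other 5 interleaved. The difference was 0.23 (95% interval -0.67 to 1.14, limma adjusted p = 1.00), and -0.21 without that tumour. Timp2, which takes part in the activation of MMP2 by MMP14, was at 10.7, 10.9 and 10.5 in SG-/- tumours and 10.8, 11.3 and 10.6 in SG+/- tumours. These overlapped, with a difference of -0.22 (95% interval -0.71 to 0.27), and 0.04 with array weights. Timp4, an inhibitor best known from heart and fat, was at 5.70, 5.64 and 6.41 in SG-/- tumours and 5.77, 5.77 and 5.96 in SG+/- tumours, with SG-/- replicate 3 high. Its difference of 0.08 was -0.16 without that tumour.

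Of the proteoglycan-cutting ADAMTS genes besides Adamts1, which are Adamts4, Adamts5, Adamts8, Adamts9, Adamts15 and Adamts20, none had an unadjusted p under 0.05, and all 6 differences lay between 0.03 and 0.40. Adamts5, the main aggrecanase of mouse cartilage and the neighbour of Adamts1 on chromosome 16, was at 7.89, 7.03 and 7.07 in SG-/- tumours and 6.79, 7.44 and 6.57 in SG+/- tumours. SG-/- replicate 1 was high and the genotypes overlapped, with a difference of 0.40 and a standard error of 0.31 (95% interval -0.33 to 1.13, limma unadjusted p = 0.238, adjusted p = 1.00). It was 0.12 without SG-/- replicate 1 and 0.65 when SG+/- replicate 2 was dropped. Adamts15 stood at 8.17, 8.05 and 7.04 in SG-/- tumours and 7.60, 7.61 and 7.46 in SG+/- tumours, so the SG-/- tumours lay on both sides of the SG+/- range. Adamts4, a second aggrecanase, showed the same layout, at 7.29, 7.32 and 6.51 in SG-/- and 6.79, 6.99 and 7.02 in SG+/- tumours. Adamts20 lay under the dim level.

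Their substrates in these tumours were measured too. Vcan, which encodes versican, differed by -0.01 with a standard error of 0.37, and Acan, aggrecan, lay under the dim level at a mean of 5.55 in SG-/- and 5.65 in SG+/- tumours. Of 18 listed substrates and matrix targets 13 were higher in SG-/- tumours. At an unadjusted p under 0.05 was 1 of them, against 1.43% of all genes on the higher side. That gene was Vwf, von Willebrand factor, which is also one of the endothelial markers, at 0.38 higher (standard error 0.15, limma adjusted p = 1.00). Adamts13, the protease that cuts it, lay under the dim level and differed by 0.09.

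The procollagen N-proteinases Adamts3 and Adamts14, which trim collagen precursors, differed by 0.16 and -0.16. Adamts7 and Adamts12, which cut cartilage oligomeric matrix protein, differed by 0.29 and 0.16. In Adamts7 the tumours were 7.67, 8.08 and 7.19 in SG-/- and 7.28, 7.42 and 7.38 in SG+/-, again with SG-/- tumours on both sides. Adamts10 and Adamts17, both linked to fibrillin microfibrils, differed by -0.25 and 0.24, and Adamts19, under the dim level, by 0.01. Adamts16 and Adamts18, a further related pair, differed by 0.19 and 0.02. Adamts18 had the widest spread of the family, at 6.06, 7.05 and 5.60 in SG-/- tumours and 5.91, 6.24 and 6.49 in SG+/- tumours, with the highest and the lowest value both in SG-/- tumours (95% interval of the difference -0.84 to 0.88).

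The tumours of 1 genotype differed among themselves. The median range over the 6 arrays was 0.77 for the members and 0.56 for all genes. Among the 33 members at or above the dim level, SG-/- replicate 1 or 2 was the highest tumour in 22, that is 66.7%, against 38.5% of all genes above that level. SG-/- replicate 3, of the same genotype, was highest in 4 and lowest in 9 of them, or 27.3%, against 48.7% of all genes above that level for the lowest place. Set against the mean of the SG+/- tumours, the median member lay at 0.29 in SG-/- replicate 1, 0.10 in replicate 2 and -0.09 in replicate 3. The median of all genes above the dim level lay at 0.05, 0.01 and -0.17 in the same tumours, so the members' median was above it in each. Among the 11 members under the dim level the order turned, and SG-/- replicate 3 was highest in 8, or 72.7%, against 54.0% of all genes under it. That array also has the highest mean of the silent receptor genes, 5.86, and its part in these dim values was not tested.

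**Figure D3:**
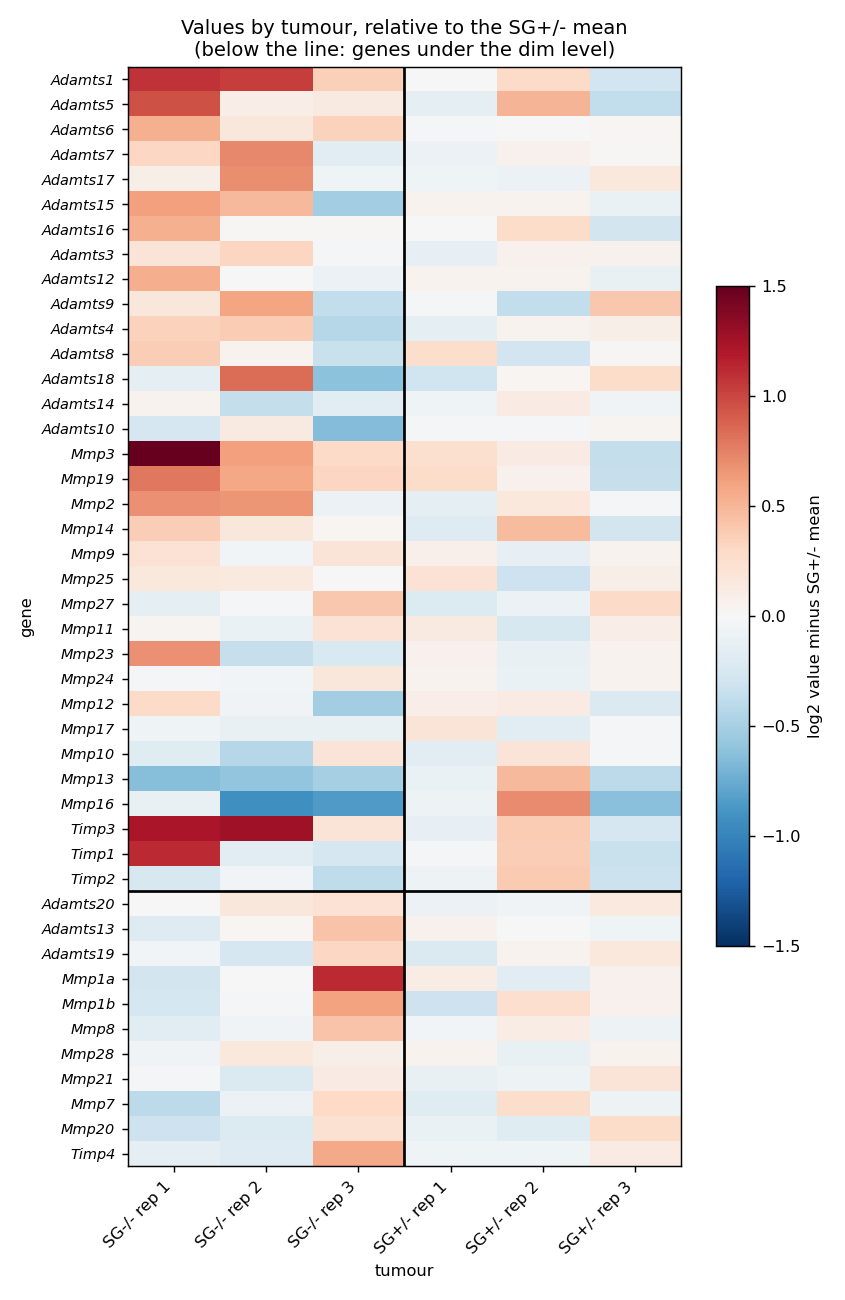
Each gene's log2 value minus its SG+/- mean (colour) in each tumour, SG-/- columns left of SG+/- columns. Genes above the horizontal line lie at or above the dim level, and there SG-/- replicate 1 or 2 is the highest tumour in 22 of 33 genes. Below the line SG-/- replicate 3 is highest in 8 of 11.

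Markers of the cells that make these proteases also differed between tumours. All 12 fibroblast markers were measured above the dim level and were higher in SG-/- tumours (median 0.59, and 0.24 without SG-/- replicate 1). Of them 4 had an unadjusted p under 0.05, against 1.43% of all genes on the higher side. Their summed level (log2) ran from 13.5 to 14.4 in SG-/- and from 12.8 to 13.4 in SG+/- tumours, and the median marker exceeded its SG+/- mean by 1.26 in SG-/- replicate 1, 0.12 in replicate 2 and 0.44 in replicate 3. In SG+/- replicates 1, 2 and 3 the same median was 0.15, 0.13 and -0.25. By this measure the genotypes overlapped, with SG-/- replicate 2 below SG+/- replicates 1 and 2. SG-/- replicate 1, highest there, was also the highest tumour for 14 of the 33 members at or above the dim level. That is 42.4%, against 25.6% of all genes above that level. Among them were Timp1, Mmp3, Mmp19, Adamts1, Adamts5 and Mmp2. Of these named genes all but Adamts5 were lowest among the SG-/- tumours in replicate 3, while the marker median was lowest in replicate 2. All 10 endothelial markers lay above the dim level and were higher in SG-/- tumours too (median 0.36), with a summed level from 11.31 to 11.78 in SG-/- and from 11.05 to 11.28 in SG+/- tumours. Against the SG+/- mean the median endothelial marker was at 0.493, 0.372 and 0.097 in SG-/- replicates 1, 2 and 3. In SG+/- replicates 1, 2 and 3 it was at 0.013, -0.117 and 0.108, so the genotypes overlapped by this measure. The macrophage markers, all 10 above the dim level, summed to between 12.10 and 13.01 in SG-/- and between 12.16 and 12.19 in SG+/- tumours. All 5 measured T cell markers were higher in SG-/- tumours (median 0.40), and 4 of the 5 lay above the dim level. Of the 5, 3 had an unadjusted p under 0.05 and 4 no overlap, against 1.43% and 2.84% of all genes on the higher side. All 5 B cell markers were higher (median 0.33, and 0.03 without SG-/- replicate 3), as were all 7 adipocyte markers (median 0.32, and 0.17 without that tumour). Above the dim level lay 3 of the 5 B cell and 5 of the 7 adipocyte markers. Of 8 mast cell markers 7 were higher (median 0.20), but only 1 of the 8, Kit, lay above the dim level. Not every list rose in this way. Higher in SG-/- tumours were 6 of 10 luminal, 4 of 8 skeletal muscle, 3 of 8 cartilage and bone and 4 of 6 keratinocyte markers. Their medians were 0.03, 0.004, -0.07 and 0.08. The part of these cell types in the differences of the protease genes was not tested.

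Basal and myoepithelial markers peaked in SG-/- replicate 2. Against the SG+/- mean the median marker was at 1.17 there, at 0.43 in SG-/- replicate 1 and at -0.28 in SG-/- replicate 3, and all 7 measured lay above the dim level. By their group means all 7 markers were higher in SG-/- tumours (median difference 0.35), and in each the genotypes overlapped. Their summed level ran from 11.7 to 13.3 in SG-/- and from 11.4 to 12.3 in SG+/- tumours. SG-/- replicate 2 was also the highest tumour for 8 of the 33 members at or above the dim level. That is 24.2%, against 12.9% of all genes above that level. These were Timp3, Adamts3, Adamts4, Adamts7, Adamts9, Adamts10, Adamts17 and Adamts18. The 10 salivary acinar markers did not move together. Their summed level ran from 13.09 to 14.54 in SG-/- and from 12.81 to 13.12 in SG+/- tumours, and SG-/- replicates 1 and 3 had the highest sums. All 10 had a mean over the 6 arrays above the dim level, but Klk1 and Smr3a lay under it in all 3 SG+/- tumours. Of the 10, 7 were higher in SG-/- tumours and 3 lower. Bpifa2 (5.27) and Klk1 (4.45) were higher with no overlap, and Dcpp2 (-2.54) and Aqp5 (-0.21) were lower with no overlap. Over all genes 2.84% were higher and 3.19% lower with no overlap. Bpifa2 stood at 13.5, 7.26 and 13.6 in SG-/- tumours and at 6.18, 5.98 and 6.47 in SG+/- tumours. At an unadjusted limma p under 0.05 were 3 on the higher and 1 on the lower side, against 1.43% and 0.685% of all genes. Prol1 and Klk1 were highest in SG-/- replicate 2. Whether either tissue bears on the protease genes was not tested.

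Genes that control these proteases or act beside them were taken as lists. Of 16 measured genes of the plasmin system and of protease control, 8 were higher in SG-/- tumours (median difference 0.06). On the lower side 1 had an unadjusted p under 0.05, against 0.685% of all genes. That gene was A2m, which encodes alpha-2-macroglobulin, a plasma trap for proteases of many classes. It was at 6.79, 6.94 and 6.69 in SG-/- tumours and at 10.2, 9.51 and 7.30 in SG+/- tumours, so that SG+/- replicate 3 stood near the SG-/- tumours and the other SG+/- tumours far above. The difference was -2.22 ± 0.68 (SE) (limma adjusted p = 1.00). Plau, the urokinase that starts plasmin formation, was 0.42 higher (standard error 0.19), Reck, a membrane inhibitor of MMPs, 0.16 higher and Bsg, an inducer of MMPs, differed by -0.06.

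A list of 16 cathepsins, other matrix proteases and related genes also holds Cst3, Hpse and Pcolce, which do not encode proteases. Of the 16, 15 were higher in SG-/- tumours (median 0.23, and 0.14 without SG-/- replicate 1). Over all genes 1.43% were higher at an unadjusted p under 0.05 and 2.84% higher with no overlap. In the list 3 genes had an unadjusted p under 0.05 with no overlap between the genotypes. These were Fap, a serine protease of activated fibroblasts and one of the fibroblast markers, at 0.595 higher (standard error 0.162), Pcolce, an enhancer of procollagen processing, at 0.598 (standard error 0.229), and Ctss, the cathepsin of antigen-presenting cells, at 0.365 (standard error 0.127), each with a limma adjusted p of 1.00. Of 11 ADAM genes, which encode membrane sheddases and relatives, 5 were higher, with a median of -0.0002 and none at an unadjusted p under 0.05. Of 6 ADAMTS-like genes and papilin, which lack protease activity, 5 were higher, with a median of 0.15 and again none at that p. After adjustment no listed gene passed in limma.

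**Figure D4:**
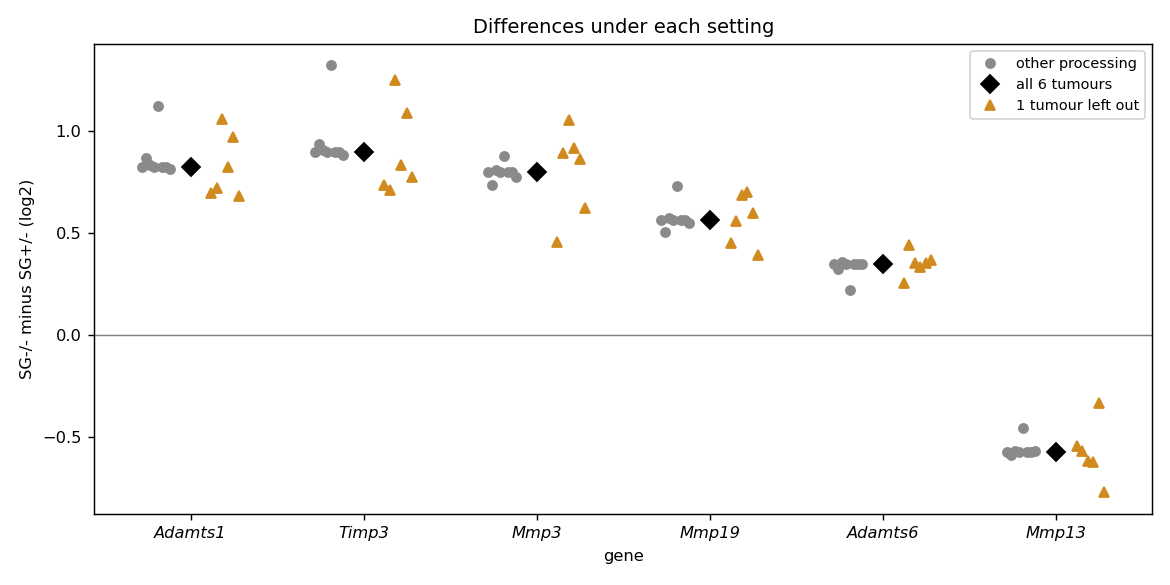
Difference (SG-/- minus SG+/-, log2, y axis) of the 6 genes with an unadjusted p under 0.05, with all 6 tumours (black), under other processing (grey) and with 1 tumour left out (orange). Every estimate keeps its sign, and Adamts1 lies between 0.68 and 1.13. Grey points for the dim filter, the trend and robust setting and the other uses of probe sets equal the black point by construction.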

How the data were processed

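RNA from 6 tumours was measured on Affymetrix whole-transcript arrays, 3 per genotype. Each probe set's deposited value is on the log2 scale. The authors normalized it by robust multi-array averaging (RMA), per the series' design text. RMA is meant to equalise array distributions, so a shift of most genes may have been removed. The deposited values still differed between arrays, with a mean of the silent receptor genes from 4.57 to 5.86. RMA, limma and Affymetrix Expression Console appear in the submitters' processing notes with no version. No value was missing in 33793 probe sets, and the median over an array lay between 6.50 and 6.73. Precision is limited by having 3 arrays a genotype. Probe sets were named from the platform annotation, with 23521 carrying 1 symbol, 1814 several and 8458 none, and the probe set with the highest mean stood for each of 22180 genes. All 44 members matched RefSeq (GRCm38.p6) by Entrez ID. A probe set's brightness depends on its probes, so levels of single members were not ranked against each other. They were set against the dim level and the silent receptor genes. The summed level of a marker list adds unlogged values over its genes, so the brightest markers weigh most in it.

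SG-/- was tested against SG+/- by moderated statistics from limma 3.58.1 (lmFit, eBayes; R 4.3.3), two-sided. P-values were adjusted by Benjamini-Hochberg over the 22180 genes and read at 0.05. The fit was tested on simulated data. Plots were drawn with matplotlib 3.10.9 (Python 3.11.15). Members, lists, alternatives and the rule for named genes were chosen with earlier results of these data known. The rule gives every tumour's value for Mmp9, Mmp2, Timp1, all TIMP genes, members with an unadjusted p under 0.05 or no overlap, and the 3 widest-ranging members per family. A few others are shown because their pattern was seen in the data. Each tumour comes from a different mouse, and no label pairs mice. Alternatives changed 1 choice at a time (filter, normalization, centring, eBayes setting, array weights, probe sets, receptor covariate, 1 tumour left out).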

Additional observations from a re-analysis of the deposited data

How the results depend on the processing

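No member passed the adjustment over all genes in any of the 14 alternatives (0 of 44 tested in 13 of them, and 0 of 33 where dim genes were left out). The count with an unadjusted p under 0.05 was 12 with array weights, where 11.6% of all genes reached that p. It lay between 1 and 9 when 1 tumour was left out. Dropping SG-/- replicate 1 gave 1 member, with 1.47% of all genes, and dropping SG-/- replicate 3 gave 9, with 5.41%. Dropping any other single tumour gave 3, with 1.66% to 2.19% of all genes. The share of all genes thus moved with the dropped tumour too. Filtering, normalizing again, centring, the trend and robust setting, the other uses of probe sets and the receptor covariate gave between 4 and 6. In these settings 1.86% to 4.68% of all genes or probe sets tested reached that p. The count of members higher in SG-/- tumours was a check added after seeing the data. It ran from 25 of 44 without SG-/- replicate 3 to 35 of 44 without SG+/- replicate 3. The shares of all genes there were 47.5% and 49.9%. Where dim genes were left out it was 25 of 33, against 42.2% of all genes tested.

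The MMP median was -0.0605 with array weights and between -0.0545 and 0.11 when 1 tumour was left out, and the ADAMTS median between 0.0761 and 0.31. Of the recomputed single-gene differences 198 kept their direction and side of the adjusted p threshold and 10 changed sign, and the cause was not tested. Part of the 198 could not change sign. Leaving out dim genes, the trend and robust setting and the other uses of probe sets leave the estimate of each named gene tested unchanged by construction. With array weights Mmp1a was -0.0314, Mmp9 -0.00987, Timp4 -0.20 and Timp2 0.0379. Adamts18 was -0.0520 with quantile normalization again. With 1 tumour left out Timp1 ran from -0.21 to 0.48, Adamts18 ran from -0.38 to 0.34, Mmp1a ran from -0.14 to 0.56, Timp4 ran from -0.16 to 0.22. No paired analysis was possible because the labels pair no mice. With 3 arrays per genotype the exact permutation test cannot go below 0.1, and the 95% interval of 9 of the 44 members reaches past 1 on the log2 scale in either direction.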

Other observations

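Of the 4 members with 2 probe sets, the dimmer one pointed the same way in Adamts8, Adamts14 and Mmp7 and the other way in Mmp11. Adamts14, a procollagen N-proteinase, differed by -0.24 in the dimmer probe set and -0.16 in the brighter one, and Adamts8, an aggrecanase, by 0.20 and 0.03. Mmp7 differed by -0.07 and -0.06, and Mmp11 by -0.09 and 0.05. None of these had an unadjusted limma p under 0.05.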
